A study of Homo sapiens with 2 samples.

Results

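The genes described here are 36 genes of glycolysis and of pyruvate handling, taken by name from a list of enzymes and transporters out of the 20163 protein-coding genes that GENCODE release 44, mapped to GRCh37, places on chromosomes 1 to 22, X and Y. A CHD4 peak was assigned to a gene when it overlapped the gene record, or the 2000 bp before its start, by at least 1 bp. By this rule 51 of the 60126 peaks of the deposited list lay at 26 of the 36 genes. The data are 1 chromatin immunoprecipitation (ChIP-seq) library of CHD4 and 1 library of input chromatin from 501Mel cells, an established human melanoma line, so each group is a single library of a single line. Both came from cells grown in RPMI medium with foetal calf serum, with no treatment named, and chromatin was fixed with 0.4% paraformaldehyde. Each peak carries a fold enrichment, a ratio of the ChIP signal to the background, and the −log10 of its q value. The list holds no read counts, so the number of reads behind each peak was not analysed here, and without replicates no test was made. The intervals given below are Wilson 95% intervals, which cover counting error only, and neither genes nor peaks are replicates.

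CHD4 is the ATPase of the NuRD complex, which couples nucleosome remodelling to histone deacetylation and is found at promoters and enhancers of many genes. Glycolysis carries glucose to pyruvate in the cytosol. Pyruvate is then reduced to lactate and exported, or enters mitochondria, where the pyruvate dehydrogenase complex turns it into acetyl-CoA; many tumours, melanoma among them, keep a high flow to lactate in the presence of oxygen.

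Of the 36 genes, 26 had a CHD4 peak, or 72.2% (56.0% to 84.2%), against 58.3% of all protein-coding genes. Among protein-coding genes within 25% of each member's length, from 838 to 2771 genes per member, the mean share was 56.8%. The interval of the 36 genes includes both values, but only just. Some changes of the rule put the length-matched share outside it, and the other changes tried left it inside. With no upstream stretch 24 genes had a peak, or 66.7% (50.3% to 79.8%), against 48.1%, and with 5000 bp 28 had one, or 77.8% (61.9% to 88.3%), against 59.3%. When the centre of the peak had to lie inside, the length-matched share, 55.97%, fell just below the lower bound of 56.01%. A difference from genes of the same length was not tested. A peak within 1000 bp of an annotated transcript start was found at 21 of the 36 genes, against 42.4% of all protein-coding genes. That is 58.3% (42.2% to 72.9%), beside 43.2% for length-matched genes, and again both values lie inside the interval. Peaks whose −log10 q was 2 or more were present at 19 genes, or 52.8% (37.01% to 68.0%), against 43.2% of all genes and 40.3% of length-matched ones. A peak with a −log10 q of 5 or more lay at 1 of the 36 genes, or 2.78% (0.492% to 14.2%), against 4.73% of all protein-coding genes and 4.07% of length-matched ones. For both thresholds the intervals include the shares of the other genes.

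**Figure D1:**
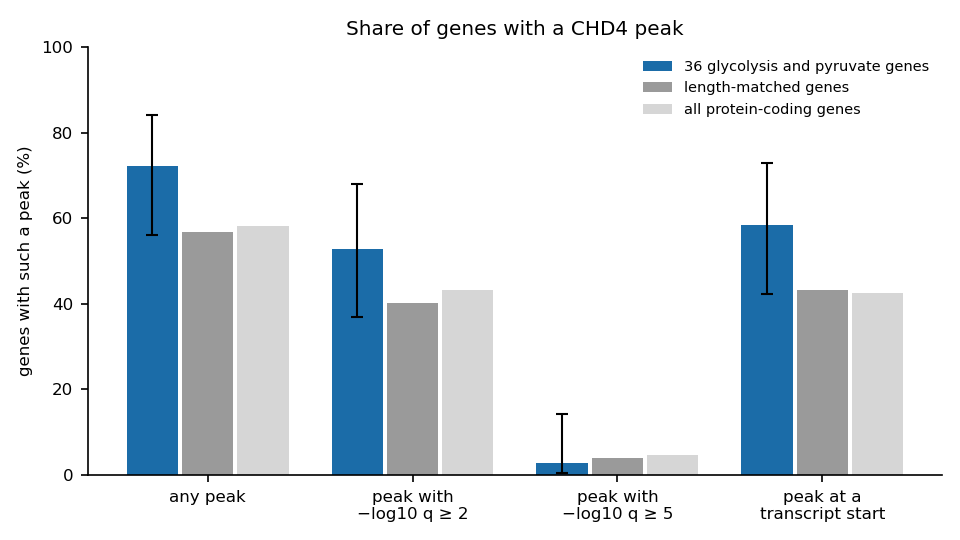
Percentage of genes with a CHD4 peak under 4 definitions of a peak, for the 36 glycolysis and pyruvate genes (blue, with Wilson 95% intervals), for length-matched genes (dark grey) and for all protein-coding genes (light grey). The blue bar for any peak stands at 72.2% beside 56.8% and 58.3%, and its interval covers both.

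The peaks at these genes were of ordinary strength. Their median fold enrichment was 3.07, from 2.41 to 4.48, and that of the 36616 peaks at other protein-coding genes was 3.10. The median −log10 q was 1.89, against 1.97. Of the 51 peaks, 9 stood above 3.42, the upper quartile of the whole list, or 17.6%. Peaks were not longer by much, with a median of 699 bp against 614 bp. Per length of gene and upstream stretch, the 36 genes carried a median of 0.454 peaks per 10 kb, against 0.175 in other protein-coding genes. The means lay closer, at 0.569 and 0.464, and length-matched genes had a mean of 0.495. Among genes with a peak alone, the medians were 0.545 in members and 0.537 in others. For a −log10 q of 2 or more, the median of the 36 genes fell to 0.131. At this threshold 52.8% of them had a peak, against 43.2% of all protein-coding genes. The percentage of bases under peaks had a mean of 5.46 in the members and 3.92 in length-matched genes. A single peak was found at 12 members, 2 peaks at 8 members, and 3 or more at 6 members.

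**Figure D2:**
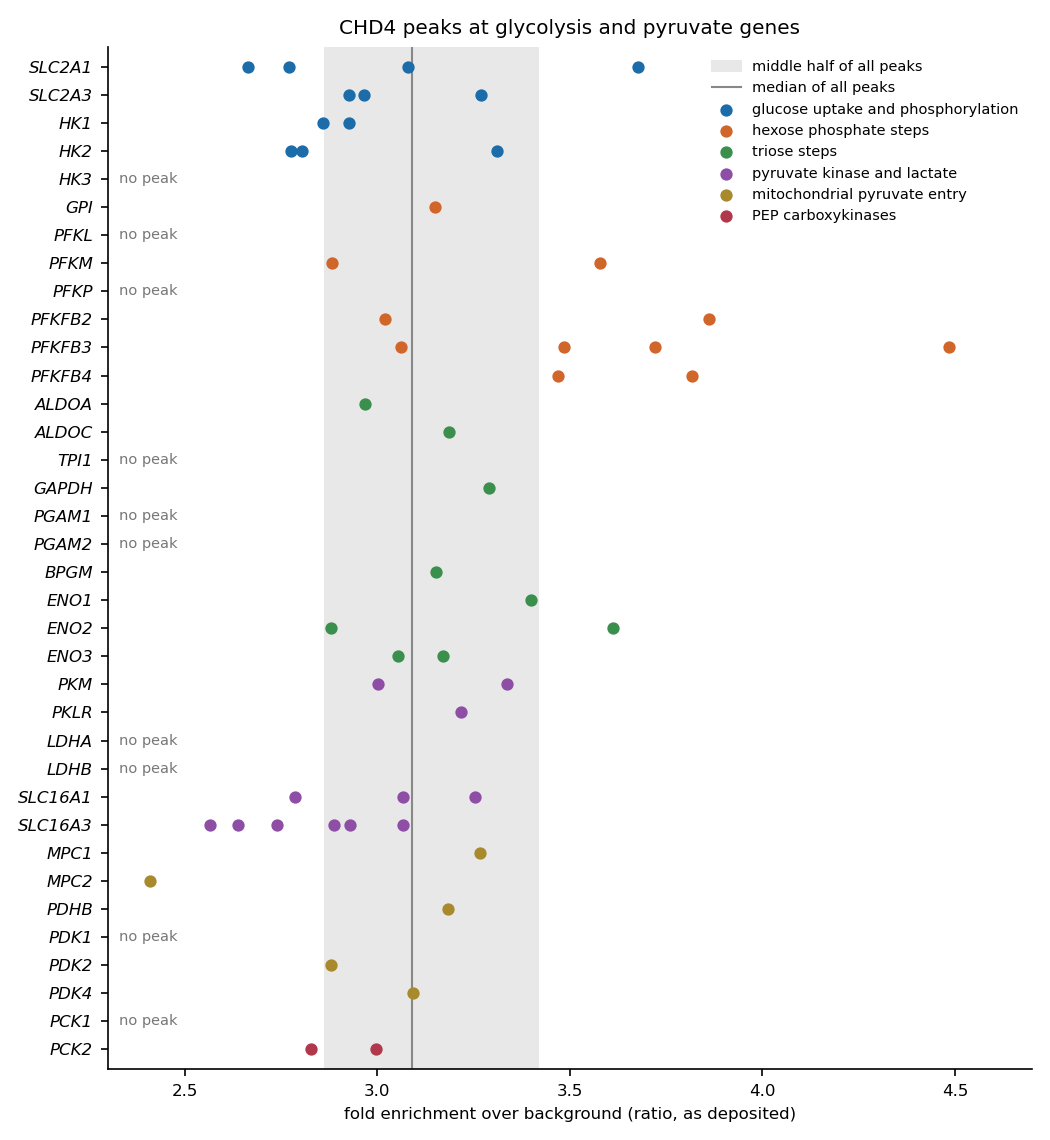
Fold enrichment over background, a ratio, of each of the 51 CHD4 peaks, 1 point per peak, with the 36 genes in the order of the pathway and coloured by role. The grey band and line mark the middle 50% and the median (3.09) of the whole list; the *PFKFB3*, *PFKFB2* and *PFKFB4* points lie farthest to the right, and 10 genes have no point.

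Glucose uptake and phosphorylation had a peak at 4 of 5 genes, or 80% (37.6% to 96.4%), beside 68.0% for length-matched genes, with 12 peaks. *SLC2A1*, which encodes the glucose transporter GLUT1, had 4 peaks. Its strongest, chr1:43418456-43420515, had a fold enrichment of 3.68, at a −log10 q of 3.19, above 86.8% of the list by fold enrichment. It is 2060 bp long and lies wholly in intron 1, with its centre 5054 bp after the start. A weaker peak, at 3.08, had its centre 762 bp before the start, and the other 2 lay in intron 1 with fold enrichments of 2.66 and 2.77. The middle of the strongest peak, 200 bp from the plus strand of GRCh37 at chr1:43419386-43419585, is shown because the gene encodes the main entry route of glucose; it holds none of the motifs searched (described below) and is printed in lower case throughout. The gene itself is transcribed from the minus strand.
SLC2A1 intron 1: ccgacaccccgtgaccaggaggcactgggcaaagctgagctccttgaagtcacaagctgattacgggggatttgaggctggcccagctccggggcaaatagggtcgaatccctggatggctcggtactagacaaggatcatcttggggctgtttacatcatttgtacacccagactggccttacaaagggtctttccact

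*SLC2A3*, which encodes the transporter GLUT3, had 3 peaks, the strongest with a fold enrichment of 3.27. That peak lay 34757 bp before the start of the canonical transcript, still inside the gene record, which is 99778 bp long whereas the canonical transcript spans 16958 bp. Another, at 2.97, took in exon 1 whole (168 bp). *HK2*, the hexokinase that is raised in many tumours, had 3 peaks. The strongest, chr2:75060000-75060990, had a fold enrichment of 3.31, at a −log10 q of 2.37 and was centred 759 bp before the start, while the other 2, at 2.80 and 2.78, lay in intron 1. *HK1*, the widely expressed hexokinase, had 2 peaks of 2.93 and 2.86, centred 43545 and 39036 bp before the start of the canonical transcript and inside the gene record. *HK3*, a hexokinase mainly of blood cells, had none, and the nearest peak lay 22329 bp before its start.

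Among the genes of the hexose phosphate steps, 5 of 7 had peaks, 11 in all, or 71.4% of genes (35.9% to 91.8%) beside 66.8% for length-matched ones. The 3 highest fold enrichments of the whole set belonged to *PFKFB3*, *PFKFB2* and *PFKFB4*. These encode bifunctional enzymes that make and break down the small-molecule activator of phosphofructokinase and so set the pace of glycolysis. *PFKFB3* had 4 peaks. The strongest, chr10:6246509-6247207, had a fold enrichment of 4.48, above 98.4% of the list, and a −log10 q of 5.05, the only one above 5 in the set. It lies in intron 1, centred 1963 bp after the start. Of the others, 1 lay 40896 bp before the canonical start, at 3.72, and 2 lay beyond the end of the canonical transcript, at 3.49 and 3.06, all inside the gene record of 109711 bp. The *PFKFB2* peak chr1:207237906-207238580 had a fold enrichment of 3.86, at a −log10 q of 3.30. It takes in the whole of exon 8, which has 125 bp, with 475 bp of intron 7 before it and 75 bp of intron 8 after it. A second peak, at 3.02, was centred 1699 bp before the start and also touched *YOD1*. The stronger peak of *PFKFB4* had a fold enrichment of 3.82, at a −log10 q of 3.58, centred 1103 bp before the canonical start. Its other peak, at 3.47, also touched the windows of *COL7A1* and *UCN2*. The central 200 bp of the strongest peaks of *PFKFB3* and *PFKFB2* follow, from the plus strand of GRCh37 (chr10:6246759-6246958 and chr1:207238144-207238343), since they lead the set. Capitals mark matches on either strand to the motifs searched. In *PFKFB3* they mark CATGTG, and in *PFKFB2* the reverse complement of CATGTG followed by 3 GGGCGG matches that share a base with each neighbour. The windows lie in intron 1 and in intron 7, and both genes are on the plus strand.
PFKFB3 intron 1: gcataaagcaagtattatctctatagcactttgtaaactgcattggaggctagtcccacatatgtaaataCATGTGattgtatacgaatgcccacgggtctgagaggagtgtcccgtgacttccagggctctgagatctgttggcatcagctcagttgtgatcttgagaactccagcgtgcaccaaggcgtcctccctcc
PFKFB2 intron 7: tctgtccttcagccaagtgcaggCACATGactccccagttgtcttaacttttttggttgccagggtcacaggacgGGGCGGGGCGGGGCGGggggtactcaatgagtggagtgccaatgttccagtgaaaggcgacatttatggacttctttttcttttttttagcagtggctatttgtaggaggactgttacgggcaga

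*PFKM*, the muscle-type phosphofructokinase that many tissues also express, had 2 peaks. The stronger, chr12:48512859-48513294, reached a fold enrichment of 3.58, at a −log10 q of 2.67, and its centre lay 71 bp before the canonical start. Exon 1, of 43 bp, lies wholly under it, as do 105 bp of intron 1. The weaker, at 2.88, lay 13389 bp before that start and touched *SENP1* too. *GPI*, which interconverts glucose and fructose phosphates, had 1 peak of 3.15 over the start of its gene record, 5708 bp before the start of the canonical transcript. *PFKL* and *PFKP*, the liver-type and platelet-type phosphofructokinases, had none. For *PFKL* the nearest peak, with a fold enrichment of 3.39, ended 2273 bp before the start, just outside the window. For *PFKP* one of 4.46 lay 5627 bp before the start.

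The triose steps had peaks at 7 of 10 genes, 9 peaks in all. Most of these genes are short, although *BPGM* has 33006 bp. Length-matched genes had a peak in 43.7% of cases against 70.0% (39.7% to 89.2%) here, an interval that includes the length-matched share. *ENO2*, the neuronal enolase, had the strongest of them, chr12:7023072-7023601, with a fold enrichment of 3.61, at a −log10 q of 2.94, centred 408 bp before the canonical start. This peak also touched *LRRC23*, and a weaker one at the other end of the gene, at 2.88, touched *ATN1*. *ENO1*, the main enolase of most tissues, had 1 peak. Its fold enrichment was 3.40 and its −log10 q 2.78, and its 2575 bp were centred 1500 bp before the canonical start.

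*GAPDH*, which oxidises glyceraldehyde phosphate, had 1 peak, chr12:6641307-6643076, with a fold enrichment of 3.29, at a −log10 q of 2.16, centred 1492 bp before the start and clear of the gene itself. *ENO3*, the muscle enolase, had 2 peaks of 3.17 and 3.05 upstream of the canonical start, both of which also touched *PFN1*. *ALDOC*, the brain aldolase, had 1 of 3.19, shared with *RSKR*, and *BPGM*, which makes the bisphosphoglycerate of red cells, had 1 of 3.15 in intron 2. *ALDOA*, the main aldolase, had 1 of 2.97 that spanned 2751 bp and covered 33.2% of the gene and its upstream stretch, the highest coverage in the set. No peak was assigned to *TPI1*, *PGAM1* or *PGAM2*, the triose phosphate isomerase and 2 phosphoglycerate mutases. The nearest peaks lay 2760 bp past the end of *TPI1*, 10939 bp before the start of *PGAM1* and 6701 bp before that of *PGAM2*.

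Of the genes of pyruvate kinase and lactate, 4 of 6 had peaks, 12 in all, which is 66.7% (30.0% to 90.3%) beside 62.1% for length-matched genes. *PKM* encodes the pyruvate kinase of most tissues and of tumours, the last step of glycolysis. It had 2 peaks, and the stronger, chr15:72523868-72524877, had a fold enrichment of 3.34, at a −log10 q of 2.26, above 69.9% of the list. Its centre lay 841 bp before the canonical start, and it reached into none of the exons of that transcript. The other, chr15:72492726-72493049, had a fold enrichment of 3.002, at a −log10 q of 1.83. It takes in exon 10 whole (182 bp) and reaches 53 bp into intron 9 and 89 bp into intron 10, and its centre lies 30644 bp after the start. Exons are numbered within the canonical transcript, which has 11, and these are not the numbers by which the alternative exons of this gene are usually known. This was the only member peak centred in a coding exon. The middle of the upstream peak, on which the place of *PKM* among the 10 strongest members rests, is given from the plus strand of GRCh37 at chr15:72524273-72524472; the gene is on the minus strand, and these 200 bp hold none of the motifs, although the 300 bp searched hold CATGTG.
PKM upstream: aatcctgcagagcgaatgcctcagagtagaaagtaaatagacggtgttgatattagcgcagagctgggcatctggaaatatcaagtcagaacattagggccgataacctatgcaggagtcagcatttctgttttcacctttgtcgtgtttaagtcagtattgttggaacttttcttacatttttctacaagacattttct

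*PKLR*, the pyruvate kinase of liver and red cells, had 1 peak of 3.22 that covered exons 1 and 2. *SLC16A1* and *SLC16A3* encode the lactate transporters MCT1 and MCT4. The first had 3 peaks, the highest at 3.25 in intron 1 and another, at 3.07, over the whole of exon 1. *SLC16A3* had 6, more than any other member, yet none exceeded 3.07, and the median of the whole list is 3.09. Of the 6, 4 lay between 3986 and 12888 bp before the canonical start, and the outermost pair also touched *CCDC57* on one side and *CSNK1D* on the other. *LDHA* and *LDHB*, which encode the subunits of lactate dehydrogenase, had no peak. The nearest to *LDHA*, of 3.02, lay 3644 bp before its start, and the nearest to *LDHB* lay 218663 bp past the end, the longest such gap among the members.

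Mitochondrial entry of pyruvate showed single peaks at 5 of 6 genes, or 83.3% (43.6% to 96.99%), and the length-matched share, 54.9%, lies in that interval. *MPC1*, a subunit of the mitochondrial pyruvate carrier, had 1 of 3.27 over exon 1, and *PDHB*, the beta subunit of the first enzyme of pyruvate dehydrogenase, had 1 of 3.18 over exon 1. *MPC2*, the other carrier subunit, had the weakest peak of the set, at 2.41 in intron 3, above 0.441% of the list. The pyruvate dehydrogenase kinases, which switch the complex off, had fold enrichments of 3.09 at *PDK4*, in intron 2, and 2.88 at *PDK2*, in the last exon and shared with *SAMD14*. *PDK1* had none within 91255 bp of its window. The PEP carboxykinases, which take oxaloacetate back towards glucose and form the last pair, had a peak at 1 gene of 2, or 50% (9.45% to 90.5%) beside 49.5% for length-matched genes. *PCK2*, the mitochondrial form, had 2 peaks of 2.996 and 2.83, both shared with *NRL*, and *PCK1*, the cytosolic form of liver and kidney, had none.

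Some of these peaks cannot be given to the member alone. Of the 51, 14 also touched another protein-coding gene or the 2000 bp before its start, or 27.5%. For peaks at other genes, which were not matched for length here, it was 9.77%. At 6 members, *ALDOA*, *ALDOC*, *ENO2*, *ENO3*, *PDK2* and *PCK2*, every peak touched another gene or its upstream stretch.

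**Figure D3:**
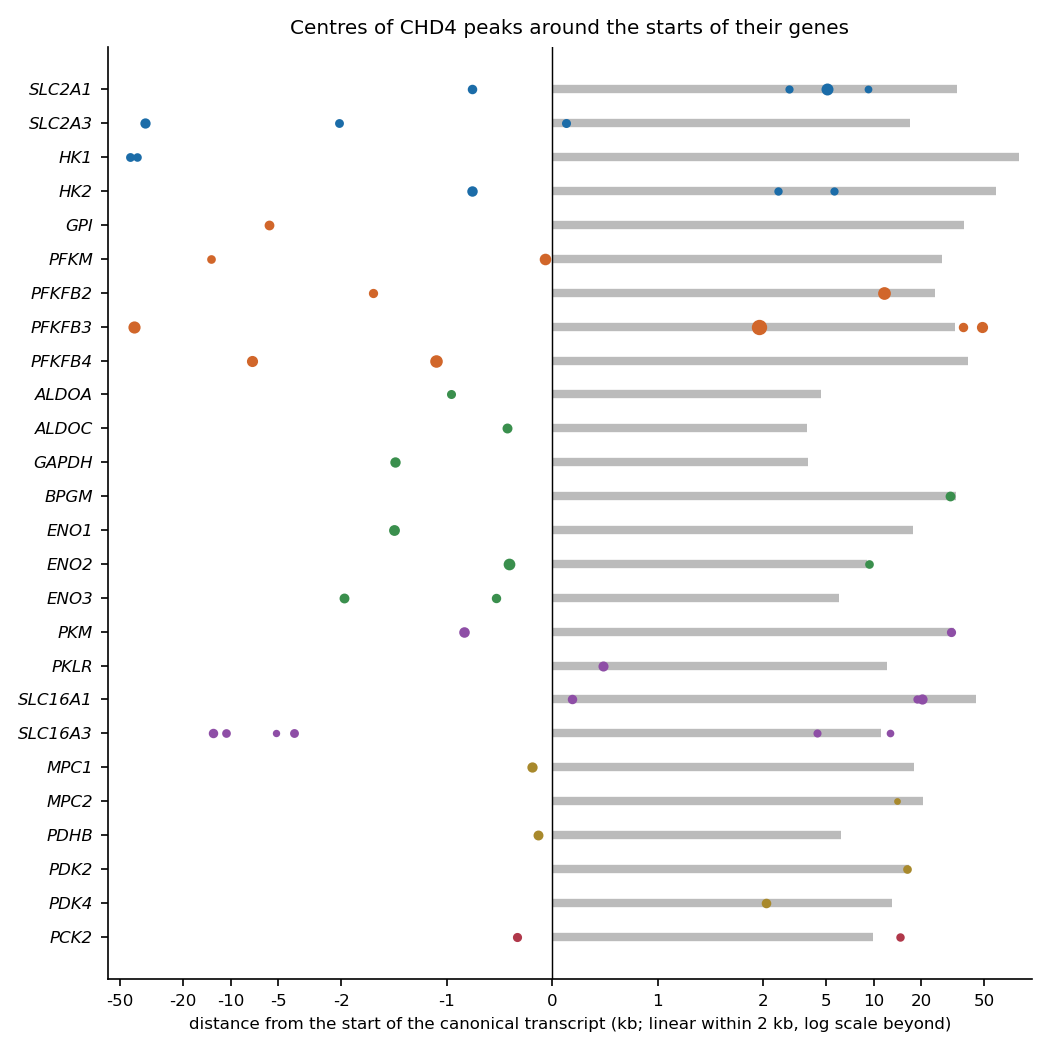
Centres of the 51 CHD4 peaks around the start of the canonical transcript of each of the 26 genes with a peak, in kb, on an axis that is linear within 2 kb and logarithmic beyond. Grey bars are the canonical transcripts, dot size grows with fold enrichment and colours are the roles used for the fold enrichments; dots left of the line at 0 lie upstream, and those of *HK1* are among the farthest.

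By the place of the peak centre in the canonical transcript, 14 of 51 were within 1000 bp of the start, or 27.5% (17.1% to 40.9%), each at a different member. Peaks at other protein-coding genes were there in 15.7% of cases, and those at length-matched genes in 27.6%, the same as the members. A further 17 peaks, at 11 members, lay farther upstream, or 33.3% (21.97% to 47.0%), against 16.4% for length-matched genes. Of these 17, 13 were centred inside the gene record, upstream of the canonical transcript but within longer annotated ones. *SLC16A3* held 4 of the 17, with centres both inside and outside its record. Introns after the first held 4 peaks, or 7.84% (3.09% to 18.5%), where length-matched genes had 28.6% and all other genes 43.5%. The shares farther upstream and in later introns thus lay outside the counting intervals, although peaks of 1 gene are not independent of each other. First introns held 9 peaks at 5 members, or 17.6%, near the 16.7% of length-matched genes. The last 7 were 1 in a coding exon, 1 in a noncoding exon and 5 beyond the end of the canonical transcript.

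**Figure D4:**
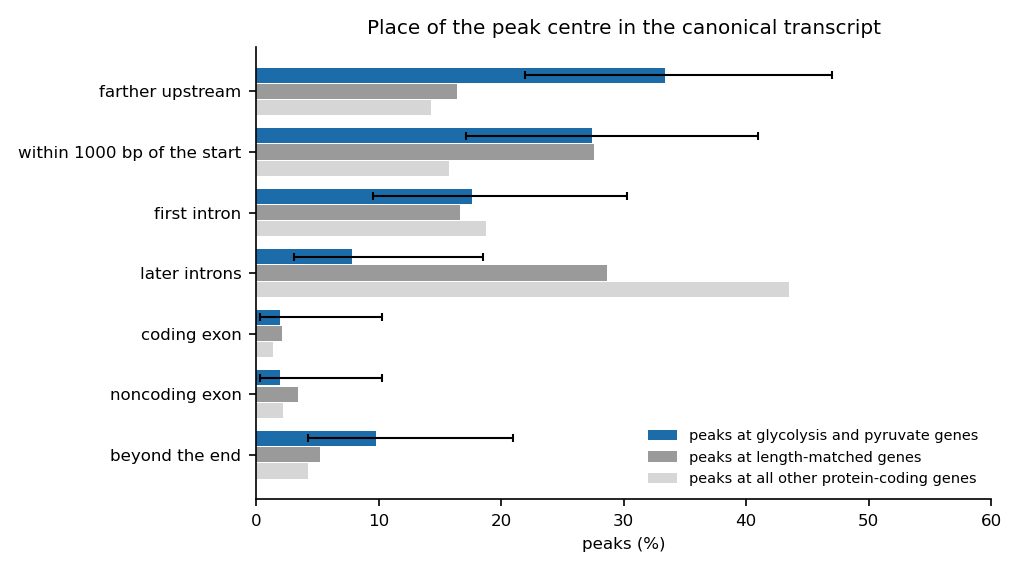
Percentage of peaks by the place of their centre in the canonical transcript, for the 51 peaks at glycolysis and pyruvate genes (blue, Wilson 95% intervals), for peaks at length-matched genes, weighted by each member's number of peaks (dark grey), and for peaks at all other protein-coding genes (light grey). Blue exceeds both greys farther upstream (33.3% beside 16.4% and 14.3%) and falls short in later introns (7.84% beside 28.6% and 43.5%).

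In the central 300 bp the peaks of the members had a median GC content of 51.7%, against 43.7% over all peaks, and a median CpG observed over expected of 0.255 against 0.202. Of the motifs searched on both strands, the E-box CACGTG, known from MYC, was found in 4 of 51 windows, or 7.84% (3.09% to 18.5%), against 5.04% of all peaks. These were at *PDHB*, at 2 peaks of *SLC16A3* and at the *PKM* peak on exon 10. The E-box CATGTG, known from MITF of the melanocyte lineage, was found in 15, or 29.4% (18.7% to 43.0%), against 22.3%. The core of the HIF-1 site, ACGTG, was found in 12, or 23.5% (14.0% to 36.8%), against 15.4%, and this core also lies inside the first E-box. The AP-1 motif TGANTCA was found in 8, or 15.7% (8.17% to 28.01%), against 11.3%. All these intervals include the share of the whole list. The GC box of the SP family, GGGCGG, was found in 13 windows, or 25.5% (15.5% to 38.9%), against 8.83% of all peaks, outside the interval.

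The GGGCGG share was compared by place, a step added after its value was seen. More of the members' peaks reached within 1000 bp of a transcript start of any protein-coding gene, 56.9% against 28.9% of the peaks at other genes. These other genes were not matched for length, and neither were the motif and GC comparisons. For centres near canonical starts, the share was 27.5% in members, 15.7% in other genes and 27.6% in length-matched ones. Among peaks that reached within 1000 bp of any start, GGGCGG occurred in 11 of 29 windows at members, or 37.9% (22.7% to 56.0%), and in 26.4% at other genes. Elsewhere it occurred in 2 of 22, or 9.09% (2.53% to 27.8%), and in 4.66%. Within each place the interval thus includes the share of other genes. The GC content of the members' peaks stayed higher in both places, with medians of 58% against 51.7% near starts and 48.7% against 42% elsewhere. CATGTG near starts had 9 of 29 windows, or 31.0% (17.3% to 49.2%), against 14.8%, outside the interval. With 5 motifs in 2 places 10 intervals were read, and the difference was not tested. TGANTCA near starts stood at the edge of its own, at 17.2% (7.598% to 34.5%) against 7.94%. A match says only that these letters are present, and no binding was read from it.

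**Figure D5:**
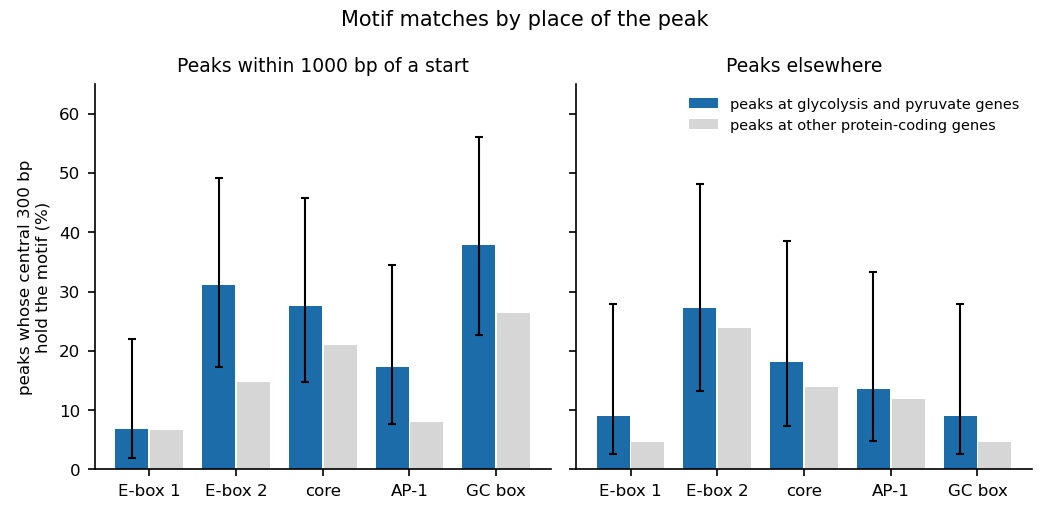
Percentage of peaks whose central 300 bp hold each motif on either strand, for peaks that reach within 1000 bp of a transcript start (left) and for all others (right), at glycolysis and pyruvate genes (blue, Wilson 95% intervals) and at other protein-coding genes (grey). E-box 1 is CACGTG, E-box 2 is CATGTG, core is ACGTG, AP-1 is TGANTCA and GC box is GGGCGG; only the left E-box 2 bar (31.0%) has an interval that misses the grey value (14.8%).

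The 10 genes without a peak were *HK3*, *PFKL*, *PFKP*, *TPI1*, *PGAM1*, *PGAM2*, *LDHA*, *LDHB*, *PDK1* and *PCK1*. They were somewhat shorter than the 26 with a peak, with a median length of 16172 bp against 26595 bp. Several glycolytic genes have processed pseudogenes, and the study kept only reads with 1 best place in the genome, so the share of 50-base stretches that occur more than once in the genome was counted for each gene, also a step added after the peaks were seen. Over the whole window the medians were alike, 4.39% without and 4.22% with a peak. In the exons of the canonical transcript the medians were 0.758% without and 0% with a peak, and the share reached 89.9% at *PGAM1*, 38.6% at *TPI1* and 14.8% at *LDHA*, among genes without a peak. It was also 27.5% at *SLC2A3*, 25% at *GAPDH* and 13.7% at *HK2*, which had peaks. Near the start, where many peaks lay, the medians were 0.1% and 0.375%. The part of repeated sequence in the missing peaks was not tested.

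Fixed subsets of the members were counted too. Of *HK3*, *PGAM2*, *ENO3*, *PKLR*, *PCK1*, *ALDOC* and *ENO2*, forms mostly of muscle, liver, blood or brain, 4 of 7 had a peak, or 57.1% (25.05% to 84.2%) beside 44.4% for length-matched genes. Of the other 29 members 22 had one, or 75.9% (57.9% to 87.8%) beside 59.8%. Of the 16 members known as targets of HIF-1, the factor that raises glycolysis in low oxygen (*SLC2A1*, *SLC2A3*, *HK2*, *PFKL*, *PFKFB3*, *PFKFB4*, *ALDOA*, *ALDOC*, *TPI1*, *GAPDH*, *PGAM1*, *ENO1*, *PKM*, *LDHA*, *SLC16A3* and *PDK1*), 11 had a peak, or 68.8% (44.4% to 85.8%) beside 56.5% for length-matched genes, and of the other 20 members 15 had one, or 75% (53.1% to 88.8%) beside 57.1%. All of these intervals include the length-matched shares. For a −log10 q of 2 or more, a comparison added after the data were seen, all 11 HIF-1 targets with a peak stayed, or 68.8% of the 16 (44.4% to 85.8%) beside 40.4% for length-matched genes, outside the interval. Of the other 20 members 8 stayed, or 40% (21.9% to 61.3%) beside 40.2%. The list of targets was chosen with earlier results of these data known, and no other list was tried. The share of the targets thus holds for these 16 members only. Of the roles, only the triose steps had a length-matched share outside the interval at this threshold, with 6 of 10 genes, or 60% (31.3% to 83.2%), against 28.95%. The share of all protein-coding genes, 43.2%, lies inside that interval. These differences were not tested.

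Further genes of the pathway were counted by the same rule. Among 35 other glycolysis and pyruvate genes 19 had a peak, or 54.3% (38.2% to 69.5%), beside 56.3% for length-matched genes. For a −log10 q of 2 or more, 11 of the 35 had one, or 31.4% (18.6% to 48.0%). The length-matched share was then 40.9%, above that of these genes and inside the interval. The 3 highest fold enrichments were at *PC*, *PDHA1* and *SLC16A7*. *PC*, pyruvate carboxylase, reached 4.82 with a −log10 q of 6.85, at chr11:66650884-66651041 in intron 3. *PDHA1*, the alpha subunit of pyruvate dehydrogenase, reached 4.72 with a −log10 q of 5.91, at chrX:19361498-19362256, 168 bp before its start. *SLC16A7*, which encodes the transporter MCT2, reached 4.40 with 4.55 as its −log10 q, at chr12:59989430-59989618, 286 bp before its start. Of 12 genes of the pentose phosphate and serine branches, 9 had a peak, or 75% (46.8% to 91.1%), beside 59.5% for length-matched genes, and none of them reached a −log10 q of 5. A −log10 q of 2 or more was reached at 7 of the 12, or 58.3% (32.0% to 80.7%), beside 42.5%.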

How the data were processed

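CHD4 was profiled by ChIP-seq in 501Mel cells, with 1 CHD4 ChIP library and 1 input library. According to the study's methods, single reads of 50 bases were mapped to hg19 with Bowtie, keeping reads with 1 best place, and peaks were called with MACS in its broad mode, which joins weaker regions at a second, looser cutoff and gives each region averaged values; the submitters' processing notes name Bowtie 1.0.0, MACS2 2.1.1.20160309 and bcl2fastq 2.17.1.14, while the reporting summary names another Bowtie release. The stated q threshold equals a −log10 q of 2, the second cutoff is not given in the sources used here, and the list runs down to 1.004; 24 of the 51 member peaks reach 2, or 47.1%, against 48.5% of the list. The library kit is given differently in the methods (MicroPlex) and the labels (NEXTflex). Whether the input served as the control is not stated in the sources used here. For each peak the authors deposited the fold enrichment, a ratio of the ChIP to the background, and the −log10 q value from the peak caller; 2 further value columns were not used.

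Positions were taken as hg19, with the first base as 1, and all peaks ended within the GRCh37 chromosomes. The 3 mitochondrial peaks were left out. A gene had a peak when at least 1 bp overlapped its GENCODE release 44 record, mapped to GRCh37, or the 2000 bp before its start. The canonical transcript gave exons and introns. Length-matched shares are means over members of the share among other protein-coding genes within 25% of each member's length. Motifs were searched in the central 300 bp on both strands. Repeated stretches are exact 50-base matches on either strand of chromosomes 1 to 22, X and Y. The functions were tested on simulated data. Python 3.11.15 was used with numpy 2.4.6, pandas 2.3.3, scipy 1.17.1 and matplotlib 3.10.9.

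The members and lists were chosen with earlier results of these data known. Named genes are all members, with fold enrichment and −log10 q for the 10 of highest fold enrichment, those that reach a −log10 q of 5 and *PKM*, and the 3 strongest of the other pathway genes; sequences are from the first 6 of the 10 whose window met no annotated UTR, of which 2 are not reported here. Alternatives covered upstream stretch, start width, overlap, threshold, merging and matching. The span of the canonical transcript, the motif shares by place, the role, subset and other pathway gene shares for a −log10 q of 2 and the repeated stretches were added after seeing the data.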

Additional observations from a re-analysis of the deposited data

How the results depend on the processing

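No paired analysis was possible because the design has a single ChIP library and a single input library, and nothing was tested. Of the values under the alternatives, 31 stayed within counting error, 1.5 times a count or 10% of a median, and 19 did not; the cause was not tested unless the construction shows it. Stricter thresholds can only remove peaks. For a −log10 q of 2 or more, the members with a peak fell from 72.2% to 52.8% (length-matched genes from 56.8% to 40.3%), those with a peak at a start from 58.3% to 41.7% (from 43.2% to 28.1%), the peaks from 51 to 24 and the median per 10 kb from 0.454 to 0.131. At 5 or more the values were 2.78% (4.07%), 0% (2.32%), 1 peak and a median of 0, and the median fold enrichment, 3.07, became 4.48, that of the single peak left. Under this threshold the members' share was the lower one, but the interval of the single gene (0.492% to 14.2%) includes the length-matched share. Leaving out peaks that touch another protein-coding gene gave 55.6% of members and 42.5% of length-matched genes. With no upstream stretch the length-matched share was 48.1% and the members' 66.7% (50.3% to 79.8%), and with 5000 bp they were 59.3% and 77.8% (61.9% to 88.3%). In both, and with the peak centre inside (55.97% against a lower bound of 56.01%), the length-matched share lay below the members' interval, whereas in the main run it lay inside. Starts taken 500 bp wide on either side gave a length-matched share of 38.7% beside 52.8% of members, 2000 bp gave 47.8% beside 63.9%, and canonical starts alone 36.4% beside 50%, each inside the members' interval. The span of the canonical transcript, added after seeing the data, left 66.7% of members with a peak (50.3% to 79.8%) beside 54.4% of length-matched genes, and *HK1* and *GPI* lost theirs. Matching within 10% of length, in 20 length classes, or also on CpG content or nearby starts kept the length-matched share between 57.0% and 57.6%. CpG content and nearby starts were taken at the start of the gene record, which can lie far from the canonical start.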
